A study of Homo sapiens with 12 samples.

Results

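The untreated baseline of the series was 4 control arrays of 12, and they fell into 2 pairs that crossed the cell line labels. Pair A held the arrays labelled HK-2 control 1 and RPTEC/TERT1 control 2, and pair B held those labelled HK-2 control 2 and RPTEC/TERT1 control 1. The pairs were chosen by the measured log2 signals of these arrays, so every difference between them given here is a description without a test. Across 16506 probes well above background on all 4 control arrays, log2 signals correlated with r = 0.984 within pair A and r = 0.974 within pair B. The arrays sharing a label gave r = 0.880 for HK-2 and r = 0.875 for RPTEC/TERT1, and the arrays sharing a replicate number gave 0.882 for both numbers. These points share a platform and a probe set, and the coefficients only describe the arrays. Of 15883 genes on in at least 1 pair, 205 lay more than 4-fold apart between the arrays of pair A and 160 between those of pair B, against 2340 and 2546 between arrays of the same label.

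The series compared 2 lines of human proximal tubular cells, left unstimulated (control) or given IL-1β at 10 ng/ml or empagliflozin (Empa) at 500 nM over 24 h. IL-1β is an inflammatory cytokine and Empa an inhibitor of the sodium-glucose cotransporter SGLT2. All groups, controls included, had first been starved of serum and growth supplements for 24 h, and each group had 2 arrays, described in the study's methods as biological duplicates. HK-2 is a line of human proximal tubular cells immortalised with the E6 and E7 genes of a papillomavirus, whose products act on p53 and RB, and RPTEC/TERT1 is a line immortalised with telomerase. Until starvation the lines grew in different media, so line and medium cannot be told apart. The sample titles name both lines, while the source label of all 12 arrays names HK-2, and the arrays are called here as their titles label them. The 3 arrays of a line and replicate number lay on 1 slide. Replicate 1 slides were scanned on one day and replicate 2 slides on another, so each pair held an array of each day.

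Levels are log2 signals relative to the 75th percentile of the same array, and a signal at or below 1 unit after scaling to a common 75th percentile was set to a floor of -8.29. A gene was called on in a pair when its brightest probe was well above background on both arrays, and off when no probe of it was well above background on either. Where a gene was off in the dim pair, "at least N-fold" sets the bright pair's mean against the dimmest signal that still counted as well above background, or against the gene's own value where that was higher. That dimmest signal was the lowest of any probe on the array (-5.70 to -5.26 on the control arrays). Other probes missed the mark at higher levels, such as ZNF287 at -4.24 on HK-2 control 2. The bound therefore holds for these scaled values and is not a lower limit under other processing. A probe's level says nothing about its level relative to another probe. The control arrays had 58.5%, 53.1%, 57.8% and 60.2% of probes well above background. Here and below, 4 values in a row stand for HK-2 control 1, RPTEC/TERT1 control 2, HK-2 control 2 and RPTEC/TERT1 control 1, so the first and second are pair A. Fewer cells of a kind and less RNA per cell cannot be told apart in such bulk samples.

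Proximal tubule cells reabsorb most of the filtered salt, sugar, amino acids and protein, and are marked by apical transporters, brush border enzymes and the transcription factors of the renal lineage. Adjacent cells are joined by E-cadherin, N-cadherin or kidney-specific cadherins and sealed by claudins and occludin. Entry into the cell cycle is controlled by RB, which holds E2F transcription factors in check, and by p53, which switches on the CDK inhibitor p21 and other targets. CDK inhibitor p16 acts upstream of RB. Occludin, a tight junction protein, was on in pair A, whereas E2F1 and the replication and mitosis genes were on or higher in pair B.

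Promoters of 5 of these genes are shown because the genes, or most of their list, differed between the pairs: 2 with E2F words (E2F1 and MCM6), 2 with CCAAT words (TOP2A and CCNB2) and 1 with an E-box (OCLN). Each is the 250 bases before the RefSeq start on GRCh38.p14, written 5′ to 3′ on the gene's strand, with matches in capitals. They lie at chr20:33686386-33686635 (minus strand), chr2:135876444-135876693 (minus), chr17:40417897-40418146 (minus), chr15:59104896-59105145 (plus) and chr5:69492297-69492546 (plus).
E2F1: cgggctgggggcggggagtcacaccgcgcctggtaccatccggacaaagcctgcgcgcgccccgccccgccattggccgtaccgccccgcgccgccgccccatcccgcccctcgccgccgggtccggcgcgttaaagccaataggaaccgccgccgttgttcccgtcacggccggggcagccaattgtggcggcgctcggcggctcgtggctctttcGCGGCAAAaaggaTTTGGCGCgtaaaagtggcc
MCM6: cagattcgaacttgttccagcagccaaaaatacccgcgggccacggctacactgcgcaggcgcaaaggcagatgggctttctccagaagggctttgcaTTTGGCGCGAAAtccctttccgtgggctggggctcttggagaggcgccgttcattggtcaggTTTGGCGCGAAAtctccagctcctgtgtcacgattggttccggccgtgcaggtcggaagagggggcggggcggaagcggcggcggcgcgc
TOP2A: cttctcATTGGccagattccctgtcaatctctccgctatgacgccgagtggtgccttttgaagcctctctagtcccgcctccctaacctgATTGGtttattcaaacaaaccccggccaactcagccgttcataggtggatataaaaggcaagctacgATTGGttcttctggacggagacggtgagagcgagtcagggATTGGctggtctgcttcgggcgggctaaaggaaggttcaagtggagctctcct
CCNB2: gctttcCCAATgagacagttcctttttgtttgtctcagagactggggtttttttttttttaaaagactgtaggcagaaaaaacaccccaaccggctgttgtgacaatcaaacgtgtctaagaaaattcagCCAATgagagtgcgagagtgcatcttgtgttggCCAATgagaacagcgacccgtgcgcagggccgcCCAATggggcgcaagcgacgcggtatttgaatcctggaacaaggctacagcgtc
OCLN: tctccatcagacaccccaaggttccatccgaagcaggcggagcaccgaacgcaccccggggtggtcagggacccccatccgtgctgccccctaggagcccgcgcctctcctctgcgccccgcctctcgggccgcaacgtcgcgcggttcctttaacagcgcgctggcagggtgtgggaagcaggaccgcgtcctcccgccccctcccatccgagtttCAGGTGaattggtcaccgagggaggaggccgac
The words searched on both strands were TTTCCCGC, TTTCGCGC, TTTGCCGC and TTTGGCGC for E2F, CCAAT, and CAGGTG for the E-box bound by the SNAI and ZEB repressors. TTTGAA was searched too and is not marked in the promoters shown. The 4 matches in MCM6 overlapped in pairs, so that 2 stretches are in capitals. An E2F word stood in 13 of 41 promoters found for the DNA replication and mitosis list (31.7%) and in 2.79% of all 27305 promoters of this length. CCAAT stood in 32 of those 41 (78.0%), in 17 of 20 HOX promoters (85.0%) and in 33.0% of all. CAGGTG stood in 9 of 32 promoters of the epithelial junction list (28.1%) and in 17.5% of all. The growth factor list had the same share (9 of 32), injury and repair had 4 of 10 (40.0%) and HOX 1 of 20 (5.0%). TTTGAA stood in 10 of 41 promoters of the DNA replication and mitosis list (24.4%) and in 13.6% of all. A match is a run of letters and not a site shown to be bound.

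In pair A, 480 of 25780 genes were on while off in pair B (1.86%), and in pair B, 865 were on while off in pair A (3.36%). The values of 478 of the 480 and 835 of the 865 did not overlap between pairs. Of all genes, 24.3% lay above in pair A and 29.5% lay above in pair B without overlap. The detection rule chose the on or off genes on these same arrays and makes such separation likely, so the contrast adds nothing to the selection. Genes at least 4-fold higher in both arrays of one pair than in both of the other numbered 875 for pair A (3.39% of all) and 973 for pair B (3.77%). In the table of normalized values that the authors deposited, the split was 359 to 140. There the 3 arrays of each slide shared a median to within 0.01 while slides differed, with the HK-2 control 1 slide at 8.31 and the other slides between 6.65 and 7.05, so that levels set across slides in that table are not on 1 scale. The 10th percentile was 8.15 on HK-2 control 1 and lay between 5.83 and 5.90 on the other control arrays.

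Among genes on in pair A, the chemokine CXCL14 read 7.85 and 8.02 there and stood at the floor on both arrays of pair B, at least 11035-fold apart, with the probe saturated on both pair A arrays. SLC12A1, the sodium-potassium-chloride cotransporter of the thick ascending limb, read 4.68 and 5.37 against the floor on both (at least 1464-fold). In each of these genes both arrays of pair A were high and both of pair B were at the floor, whichever line the labels gave.

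SULF2, which trims sulfates from heparan sulfate, read 4.48, 4.67, -5.12 and -5.33 (at least 890-fold). CPVL, a carboxypeptidase, SPON1, a matrix protein, and SCIN, which severs actin, were at the floor on both arrays of pair B and at least 872-fold, 579-fold and 392-fold higher in pair A. PAX2, a transcription factor of the nephric lineage, read 3.63 and 3.68 against the floor on both (at least 568-fold). Further genes with the largest bounds were EMC10 (at least 683-fold), SFRP1, a secreted WNT antagonist (488-fold), TNFSF12, the ligand TWEAK (382-fold), and CLIP4 (375-fold), whose pair B values ran from -8.29 to -5.49.

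Among genes on in pair B, CLDN11, a tight junction claudin, read -5.84, -7.08, 4.49 and 4.51 (at least 940-fold). IRX4, a homeobox transcription factor, read -6.36, -8.29, 3.49 and 3.83 (at least 524-fold), and CCND2, cyclin D2, stood at the floor on both arrays of pair A and at 3.07 and 2.96 in pair B (at least 335-fold). All 3 were low on both arrays of pair A and high on both of pair B. SLN, an inhibitor of the sarcoplasmic calcium pump, TCEA3, an elongation factor, NEFH, a neurofilament subunit, and ALDH1A3, which makes retinoic acid, were at least 362-fold, 355-fold, 315-fold and 300-fold higher in pair B. CPE, a carboxypeptidase of secretory granules, TM4SF18 and RRAD, a small GTPase, were at least 299-fold, 270-fold and 260-fold higher, as was the pseudogene LSP1P5 at 284-fold, whose signal may come from near-identical copies. Decorin (DCN) read -4.87, -4.73, 3.09 and 3.13 (at least 240-fold).

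**Figure D1:**
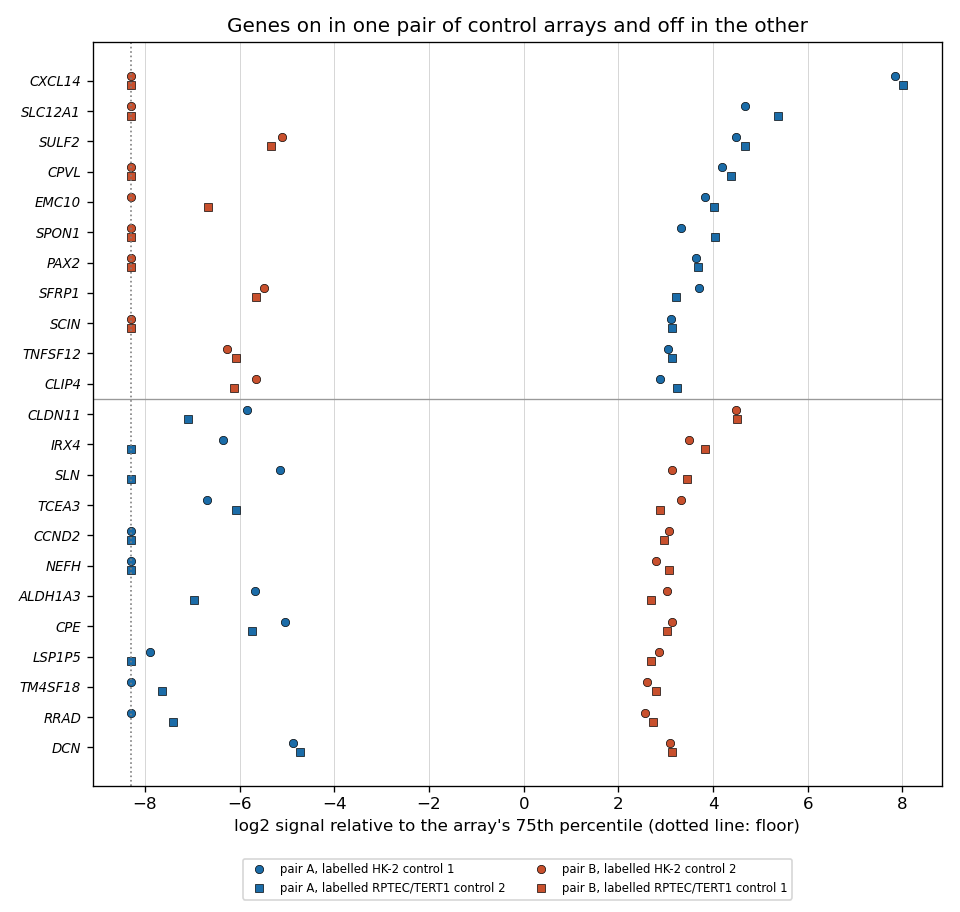
Log2 signal relative to the array's 75th percentile (x axis) of genes with the largest difference that were on in pair A and off in pair B (top) and of those the other way (bottom). Circles are arrays labelled HK-2, squares arrays labelled RPTEC/TERT1, blue is pair A and red pair B, and the dotted line is the floor of -8.29; in every row the 2 colours separate and the 2 shapes do not.

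Of 561 genes in 16 lists, 550 were measured, and the lists differed in how many of their genes were at least 4-fold apart. The DNA replication and mitosis list had 44 of 50 genes at least 4-fold higher in pair B, and renal lineage transcription factors had 12 of 33 at least 4-fold higher in pair A. After normexp and quantile normalization and in the authors' table these counts were 33 and 14 for DNA replication and mitosis and 9 and 10 for the transcription factors. No keratin of 25 was at least 4-fold apart in either direction, and 13 of them were off in both pairs. Over all genes the shares were 3.39% for pair A and 3.77% for pair B. The median difference of all genes was -0.01 (pair A minus pair B, log2), and the list medians below are read beside it.

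**Figure D2:**
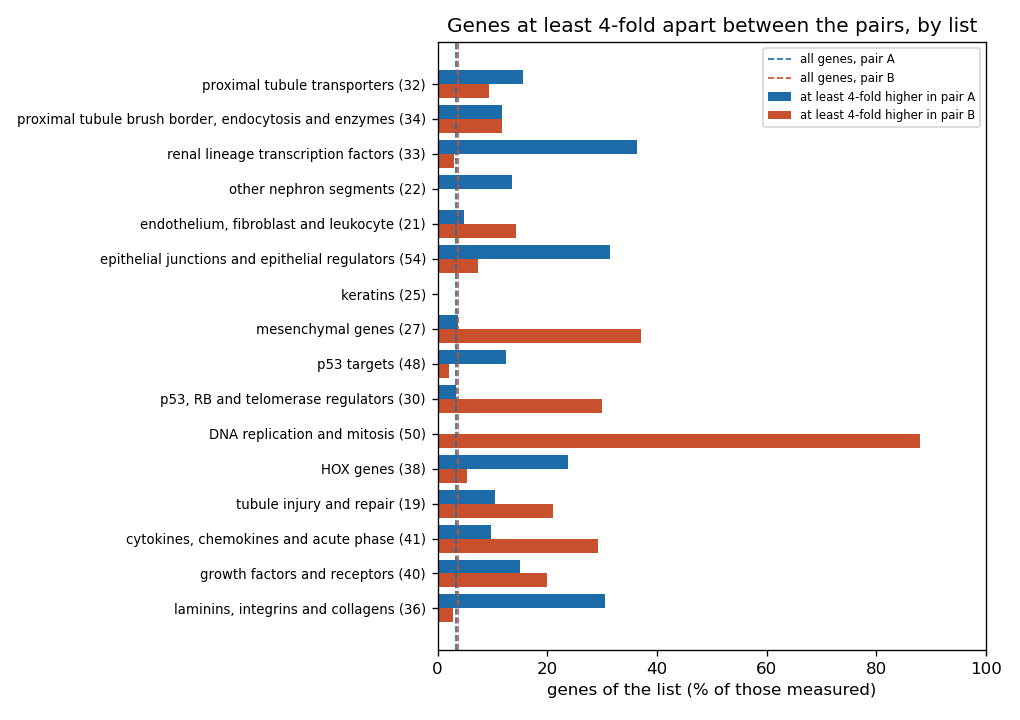
Share of the measured genes of each list (x axis, percent; the number measured is in brackets) that were at least 4-fold higher in pair A (blue bars) or in pair B (red bars), with the shares over all genes as dashed lines (3.39% and 3.77%). The bar for DNA replication and mitosis in pair B, 44 of 50 genes, is the longest.

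**Figure D3:**
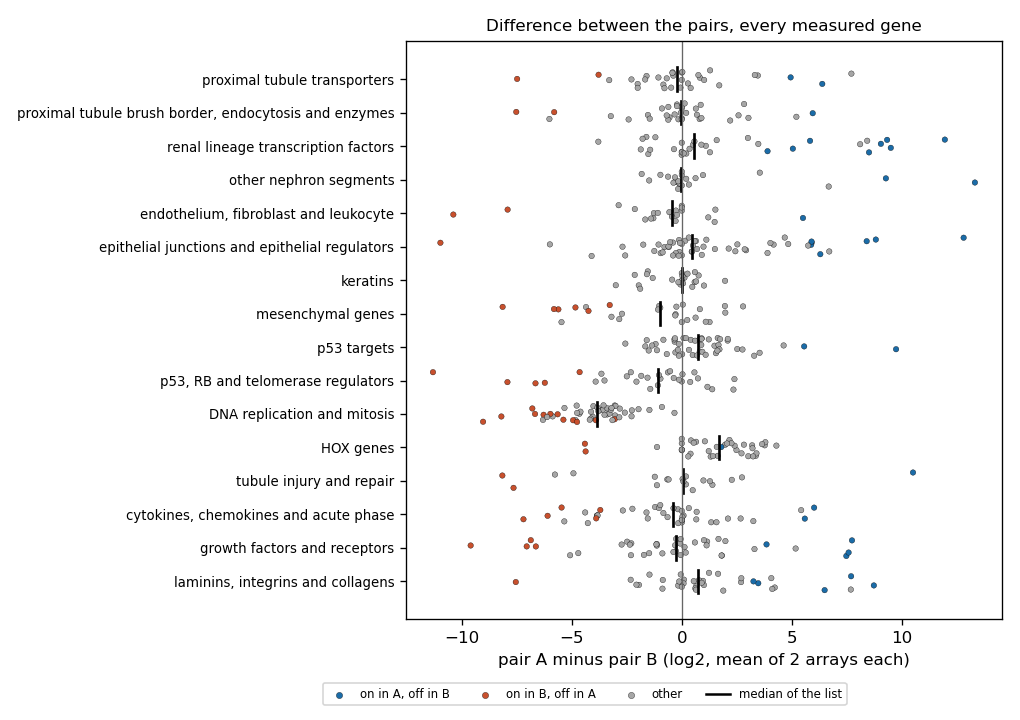
Difference between the pairs (pair A minus pair B, log2 of the mean of 2 arrays each, x axis) for every measured gene of each list, with a black line at the list's median. Blue points were on in pair A and off in pair B, red points the reverse, and grey points all others; the DNA replication and mitosis median lies at -3.87 and the HOX median at 1.71.

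Tubular transcription factors were on in pair A more often than in pair B: 8 of 33 measured were on in pair A and off in pair B and none the other way, 12 were at least 4-fold higher in pair A and 1 in pair B, with a median difference of 0.57 (0.94 on the first scan day and 0.32 on the second). EMX2, needed for the early kidney, read 3.1, 3.14, -4.46 and -8.29 (at least 293-fold), and TFAP2B, of the distal nephron, read 2.62, 3.03, -6.39 and -6.60 (at least 319-fold). Both were on in both arrays of pair A and off in both of pair B. TFCP2L1, IRX2 and SOX9 were at least 310-fold, 257-fold and 12.1-fold higher in pair A, and POU3F3 at least 4.43-fold. IRX1 read 2.95, 3.13, -2.47 and -8.29, with the HK-2 control 2 array well above background, and MECOM read 3.37, 3.82, -4.62 and -4.38. IRX5 and SIM1 were on in all 4 arrays and 8.01-fold and 11.1-fold higher in pair A. MAF was the 1 factor at least 4-fold higher in pair B (-3.54, -3.75, -0.12 and 0.41).

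PAX8, a nephric factor kept in adult tubules, was on in both pairs at 3.11, 3.09, 1.85 and 2.16. HNF4A, a proximal tubule factor, was at the floor on all 4 arrays. Of 11 proximal tubule markers, 6 were on in pair A and 5 in pair B, and CUBN, SLC22A6 and HNF4A were among those off in both. All 8 markers of tubular epithelium in general were on in pair A and 6 in pair B, where PAX2 and CDH1 were off, and the epithelial markers EPCAM, KRT8 and KRT18 were on in all 4 arrays. Both distal markers (SLC12A3, CALB1) and all 3 collecting duct markers (AQP2, SCNN1G, FOXI1) were off in both pairs.

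Proximal tubule transporters did not shift as a group: 5 of 32 were at least 4-fold higher in pair A and 3 in pair B (3 and 0 in the authors' table), and the median difference was -0.22, with 0.13 between the arrays of the first scan day and -0.32 between those of the second, and 0.02 after normexp and quantile normalization. SLC3A1, a subunit of the cystine and dibasic amino acid transporter, read 5.78, 5.82, -2.02 and -1.77 and was 208-fold higher in pair A. The bicarbonate transporter SLC4A4 (10.95-fold), the efflux pump ABCB1 (9.95-fold) and the transporters SLC6A13 (at least 30.4-fold) and SLC7A8 (at least 31.6-fold) were also higher in pair A. Pair B was higher for SLC2A2, the glucose transporter GLUT2, at the floor on both arrays of pair A and at -0.80 and -0.82 in pair B (at least 23.7-fold), for the amino acid transporter subunit SLC7A7 (at least 9.09-fold) and for SLC22A4 (-4.27, -5.59, -1.71 and -1.56). SLC5A2, which encodes the Empa target SGLT2, was on in all 4 arrays at -2.57, -1.96, -1.60 and -1.96, and the pairs overlapped.

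Brush border, endocytosis and enzyme genes had 4 of 34 higher by at least 4-fold in each pair (median -0.02). ANPEP, aminopeptidase N, read -0.90, -1.0, -8.29 and -5.51 (at least 21.8-fold higher in pair A), whereas ENPEP, aminopeptidase A, stood at the floor in pair A and read -1.49 and -0.05 in pair B (at least 24.3-fold). The kidney-specific cadherin CDH16 read 6.78, 7.28, 1.89 and 1.76 (36.8-fold higher in pair A), and CDH6, a cadherin of the embryonic tubule, read -2.91, -2.86, 2.69 and 3.56 (64.6-fold higher in pair B). Another probe of CDH6 ran in the other direction. The dipeptidase DPP4 (5.96-fold) and the folate receptor FOLR1 (7.10-fold) were higher in pair A, and MIOX, which breaks down inositol (9.34-fold), and CYP27B1, the vitamin D hydroxylase (at least 7.38-fold), were higher in pair B. Endocytic receptor LRP2, megalin, read -0.99, -1.03, 1.07 and -0.02.

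Among 22 genes of other nephron segments, SLC12A1 and KCNJ1, the ROMK channel, were on in pair A and off in pair B, KCNJ1 by at least 88.8-fold. The thick limb claudin CLDN16 read 3.08, 3.53, -3.01 and -3.73 (102-fold higher in pair A), whereas UMOD, uromodulin, was on at -2.07, -2.29, -1.80 and -2.35 with overlapping pairs. Summed signal of the 2 thick limb markers, UMOD and SLC12A1, relative to the 75th percentile was 25.9, 41.4, 0.290 and 0.199.

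Junction genes and epithelial regulators were higher in pair A for 17 of 54 by at least 4-fold and higher in pair B for 4, with a median difference of 0.48 (0.81 on the first scan day and 0.21 on the second). That median was 0.39 after normexp and quantile normalization and 0.88 in the authors' table, where that of all genes was 0.79. CDH1, E-cadherin, read 3.15, 3.35, -5.01 and -5.28 (at least 337-fold). The tight junction protein occludin, OCLN, read 0.94, 0.88, -5.22 and -4.74 (at least 59.4-fold), and CLDN3 read 3.70, 3.48, -2.35 and -2.27 (59.6-fold). All 3 were high in pair A and low in pair B. The apical sorting protein MAL read 7.53, 7.92, 0.89 and 1.17 (104-fold), and MUC1, a membrane mucin, was 53.4-fold higher in pair A. CLDN10 and CLDN14 were at least 47.4-fold and 214-fold higher in pair A and EHF, an epithelial ETS factor, at least 13.8-fold. A second probe of CLDN14 ran in the other direction. Desmosome and tight junction genes on in all 4 arrays were higher in pair A by 25.5-fold for DSP, 28.5-fold for PPL, 18.0-fold for CLDN23, 14.9-fold for MARVELD2 and 16.2-fold for CGN. The proteases and inhibitors ST14 (7.24-fold) and SPINT1 (5.75-fold) were higher in pair A, but PRSS8, prostasin, read -1.72, -1.93, 4.13 and 4.21 (63.6-fold higher in pair B), and CLDN1 (6.47-fold) and GRHL1 (5.94-fold) were higher in pair B.

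**Figure D4:**
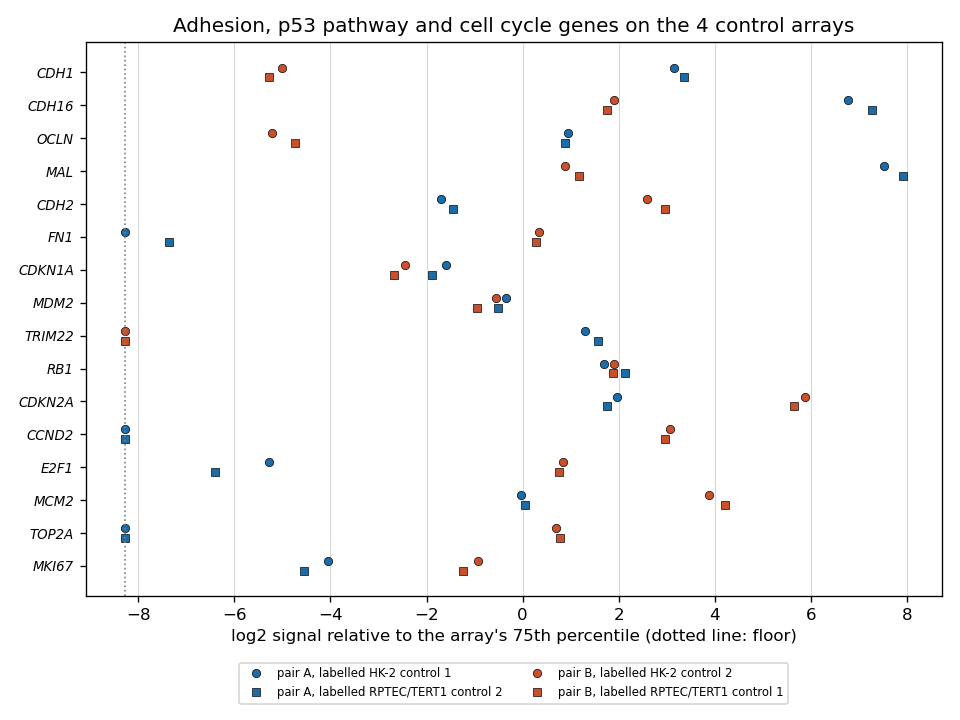
Log2 signal relative to the array's 75th percentile (x axis) of adhesion, p53 pathway and cell cycle genes on the 4 control arrays; circles are arrays labelled HK-2, squares arrays labelled RPTEC/TERT1, blue pair A and red pair B. CDH1, CDH16, OCLN and MAL lie higher in pair A, while CDH2, FN1, CDKN2A, CCND2, E2F1, MCM2, TOP2A and MKI67 lie higher in pair B, and RB1 overlaps.

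Mesenchymal genes ran the other way, with 10 of 27 at least 4-fold higher in pair B and 1 in pair A (5 and 1 after normexp and quantile normalization, 2 and 0 in the authors' table; median -0.98, with -0.24 on the first scan day and -0.57 on the second). N-cadherin, CDH2, read -1.70, -1.45, 2.59 and 2.96 (20.4-fold), and fibronectin, FN1, read -8.29, -7.36, 0.34 and 0.29 (at least 51.5-fold). COL6A2, a collagen VI chain, and the repressors ZEB2, SNAI2 and TWIST1 were on in pair B and off in pair A, by at least 48.1-fold, 10.8-fold, 9.67-fold and 5.14-fold. SPARC read -3.88, -4.65, 1.19 and 1.20, LOX read -4.10, -4.05, -1.59 and -0.87, and LOXL2, which crosslinks collagen, was 9.15-fold higher in pair B, whereas THBS1, thrombospondin, was 6.88-fold higher in pair A. Vimentin, VIM, was higher in pair A (7.36, 7.92, 6.61 and 6.15), and ZEB1 and SNAI1 were on in all 4 arrays. The median of the list was positive (0.27) in the authors' table, where that of all genes was 0.79.

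Markers of other cell types moved with this list in part. Of 6 fibroblast markers, LUM (lumican) stood at the floor on both arrays of pair A and at 2.09 and 2.08 in pair B (at least 176-fold) and DCN was on only in pair B, while PDGFRA, PDGFRB and COL3A1 were off in both pairs and COL1A1 read -2.49, -2.70, -4.21 and -3.97. The summed signal of the 6 relative to the 75th percentile was 0.233, 0.213, 12.9 and 13.1. In pair B that sum came mostly from the DCN and LUM probes, and its part in the mesenchymal values was not tested. ACTA2, smooth muscle actin, was at least 45.3-fold higher in pair A. Of 3 endothelial markers 1 (CDH5) was on in both pairs, with PECAM1 and VWF off. The leukocyte marker PTPRC was on in both pairs, CD14 was on in pair B and on 1 array of pair A, and CD3E was off. CD68, a macrophage gene also found in other cells, was 7.30-fold higher in pair B. The podocyte genes NPHS1 and WT1 were off.

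Targets of p53 lay higher in pair A for 29 of 48 without overlap and higher in pair B for 11, with a median difference of 0.75 (0.62 and 0.66 on the 2 scan days). That median was 0.46 after normexp and quantile normalization and 0.84 in the authors' table, where that of all genes was 0.79. By at least 4-fold, 6 were higher in pair A (3 in the authors' table) and 1 in pair B. TRIM22 read 1.31 and 1.58 in pair A and the floor in pair B (at least 122-fold), and the receptor EDA2R read -2.69 and -2.77 against the floor (at least 6.78-fold). The ribonucleotide reductase subunit RRM2B (9.75-fold) and CYFIP2 (11.6-fold) were on in all 4 arrays and higher in pair A, as was the decoy receptor TNFRSF10C at 0.20, 0.56, -5.24 and -3.24. PMAIP1, the cell death gene NOXA, was 5.92-fold higher in pair B. The main targets differed less: CDKN1A, which encodes p21, read -1.60, -1.89, -2.45 and -2.67, and MDM2, the p53 ligase, read -0.35, -0.51, -0.55 and -0.95. The cytokine GDF15 read 7.46, 7.89, 6.24 and 5.78, while BBC3 read 2.07, 2.11, 2.06 and 2.09 and BAX 2.75, 3.14, 2.85 and 2.89.

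Regulators of p53, RB and telomerase were higher in pair B for 9 of 30 by at least 4-fold (4 in the authors' table) and in pair A for 1, with 5 on in pair B and off in pair A and none the other way. RB1 read 1.70, 2.14, 1.91 and 1.88, where the pairs overlapped. CDKN2A, the locus of p16 and p14ARF, read 1.96, 1.76, 5.89 and 5.66 (15.1-fold higher in pair B). The telomerase gene TERT read -3.25, -3.87, -3.03 and -3.02 and was well above background on 3 of the 4 arrays, HK-2 control 1 among them. E2F1 read -5.29, -6.41, 0.85 and 0.75 (at least 67.4-fold), and the related E2F2, E2F7 and cyclin E2, CCNE2, were at least 82.3-fold, 24.9-fold and 40.8-fold higher in pair B. MYC (12.6-fold), the RB relative RBL1 (5.65-fold) and dyskerin, DKC1 (4.97-fold), were higher in pair B, and CDKN2C, the CDK inhibitor p18, was 5.24-fold higher in pair A.

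DNA replication and mitosis genes were higher in pair B for 49 of 50 without overlap, and the median difference was -3.87. The median was -3.62 between the arrays scanned on the first day and -3.99 between those scanned on the second. TOP2A, topoisomerase II, stood at the floor in pair A and at 0.69 and 0.79 in pair B (at least 69.1-fold), and MCM2, of the replicative helicase, read -0.03, 0.04, 3.89 and 4.22 (16.6-fold). The other helicase subunits MCM3 to MCM7 were 8.05-fold to 16.2-fold higher in pair B. Replication genes PCNA (11.955-fold), CDT1 (40.2-fold), CDC45 (58.4-fold) and TYMS (17.5-fold) lay higher in pair B as well. Among mitosis genes, CDK1 (25.1-fold) and UBE2C (69.5-fold) were on in all 4 arrays, and CENPA, CCNA2, PLK1 and AURKB were off in pair A and higher in pair B by at least 38.9-fold, 33.7-fold, 22.9-fold and 22.4-fold. The proliferation marker MKI67 read -4.06, -4.55, -0.94 and -1.23. Genes not at least 4-fold apart included RRM1, GINS1 and CDC25A, on in both pairs, CDC6, on in pair B and off in pair A, and STMN1, off in both pairs.

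HOX genes, which mark position along the body axis, were higher in pair A for 27 of 38 without overlap and higher in pair B for 3, and the median difference was 1.71 (1.80 on the first scan day and 1.84 on the second). HOXD8 read 1.47, 1.78, -2.35 and -3.0 (19.6-fold), and HOXB6 read 5.79, 6.11, 2.31 and 2.05 (13.6-fold). HOXD1, HOXD3, HOXC4, HOXD10, HOXA2, HOXD9 and HOXB5 were between 5.59-fold and 13.9-fold higher in pair A, and HOXA11 was on in pair A and off in pair B. HOXB13 went the other way and read -6.37, -5.50, -1.68 and -1.39 (at least 14.3-fold higher in pair B) and HOXC13 was at least 4.62-fold higher in pair B.

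Injury and repair genes went in both directions, 2 of 19 higher in pair A and 4 in pair B by at least 4-fold (2 and 1 in the authors' table). PROM1, the progenitor surface marker CD133, read 2.26 and 2.17 against the floor (at least 209-fold higher in pair A), and LCN2, the injury marker NGAL, read -6.33, -6.04, 2.15 and 1.77 (at least 162-fold higher in pair B). HAVCR1, the injury marker KIM-1, read -3.74, -5.23, 0.14 and 0.74. The adhesion molecule VCAM1 was at least 26.5-fold and the growth factor MDK 54.3-fold higher in pair B, whereas IGFBP7 was at least 6.65-fold higher in pair A, where its probe was saturated on both arrays.

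Of 41 cytokine, chemokine and acute phase genes, 12 were at least 4-fold higher in pair B and 4 in pair A. The split was 8 to 3 after normexp and quantile normalization and 3 to 3 in the authors' table, where the list's median difference was 0.83 in place of -0.38 and that of all genes was 0.79. CCL2, the chemokine MCP-1, read 0.23, 0.24, -5.65 and -5.90 (at least 53-fold higher in pair A), and EDN1, endothelin-1, read 1.76, 1.69, -3.55 and -3.84 (42.8-fold higher in pair A). SLPI, an antiprotease, and CXCL1 were also higher in pair A, by at least 37.2-fold and by 6.37-fold. The colony-stimulating factor CSF2 read -4.50, -8.29, 0.72 and 0.87 (at least 51.2-fold higher in pair B). IL32, C3, IL6, CXCL2 and TNFSF10 were between 14.2-fold and 20.9-fold higher in pair B, and CXCL8 read -3.90, -3.62, 1.28 and 1.87. CCL28, PTX3, CFB and CCL20 were on in pair B and off in pair A, by at least 27.4-fold, 14.1-fold, 13.0-fold and 9.07-fold, and ICAM1 was 6.40-fold higher in pair B.

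Growth factors and receptors were at least 4-fold higher in pair A for 6 of 40 and in pair B for 8, which became 3 and 4 after normexp and quantile normalization and 4 and 3 in the authors' table. The receptor ERBB4 read 1.84, 2.49, -4.99 and -6.14 (at least 182-fold higher in pair A) and FGFR2 3.26, 3.21, -1.97 and -1.89 (36.0-fold higher in pair A). BMP4, IGFBP5 and TGFBR3 were at least 27.5-fold, 25.6-fold and 6.05-fold higher in pair A, and IGFBP2, on in all 4 arrays, was 9.85-fold higher. In pair B the EGF receptor ligands EREG (at least 99.0-fold) and AREG (33.7-fold) were higher, as was the BMP antagonist GREM1 (at least 102-fold). EGFR itself was 4.95-fold higher in pair B by its brightest probe, while another probe of EGFR ran in the other direction. IGFBP3 (26.0-fold), VEGFC (at least 21.8-fold), INHBA (at least 17.7-fold) and KITLG (6.65-fold) completed the 8.

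Basement membrane and matrix receptor genes were higher in pair A for 11 of 36 (5 after normexp and quantile normalization, 6 in the authors' table) and in pair B for 1 (median 0.72). The median was 0.70 in the authors' table, where that of all genes was 0.79. The collagen IV chain COL4A4 read 3.74, 4.00, -3.81 and -3.80 (204-fold higher in pair A), and COL4A6 and COL17A1 stood at the floor in pair B (at least 60.8-fold and 29.7-fold), with a COL4A6 probe running in the other direction. COL4A5 was 17.2-fold higher in pair A, COL4A3 read 0.06, -0.46, -5.18 and -3.66, and the laminin chain LAMA2 read -1.20, -0.92, -3.69 and -3.81. The integrin subunits ITGB6, ITGB4, ITGA1, ITGA6 and ITGA2 were higher in pair A by at least 33.0-fold, by 16.7-fold, by at least 9.68-fold, by 6.51-fold and by at least 4.36-fold. Nidogen, NID1, read -4.62, -8.29, 0.98 and 1.19 (at least 65.2-fold higher in pair B).

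The treated arrays had no part in setting the pairs, although each shared a slide and a label with a control array. Of 475 genes on in pair A and off in pair B that were measured on all 8 treated arrays, 196 (41.3%) were on in all 4 treated arrays of the pair A slides and off in all 4 of the pair B slides. Of 861 genes on in pair B and off in pair A, 350 (40.7%) kept the reverse state. Of the genes at least 4-fold apart, 784 of 875 higher in pair A and 862 of 973 higher in pair B had treated values that did not overlap. No share over all genes was computed for the treated arrays, so these counts have no background beside them. Among cytokine, chemokine and acute phase genes, 2 of the 12 higher in pair B had treated values free of overlap, and 4 of the treated arrays were IL-1β arrays. The median of the DNA replication and mitosis genes measured on all 12 arrays ran from -2.99 to -2.65 on the 6 arrays of the pair A slides and from 1.48 to 2.31 on the 6 of the pair B slides.

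**Figure D5:**
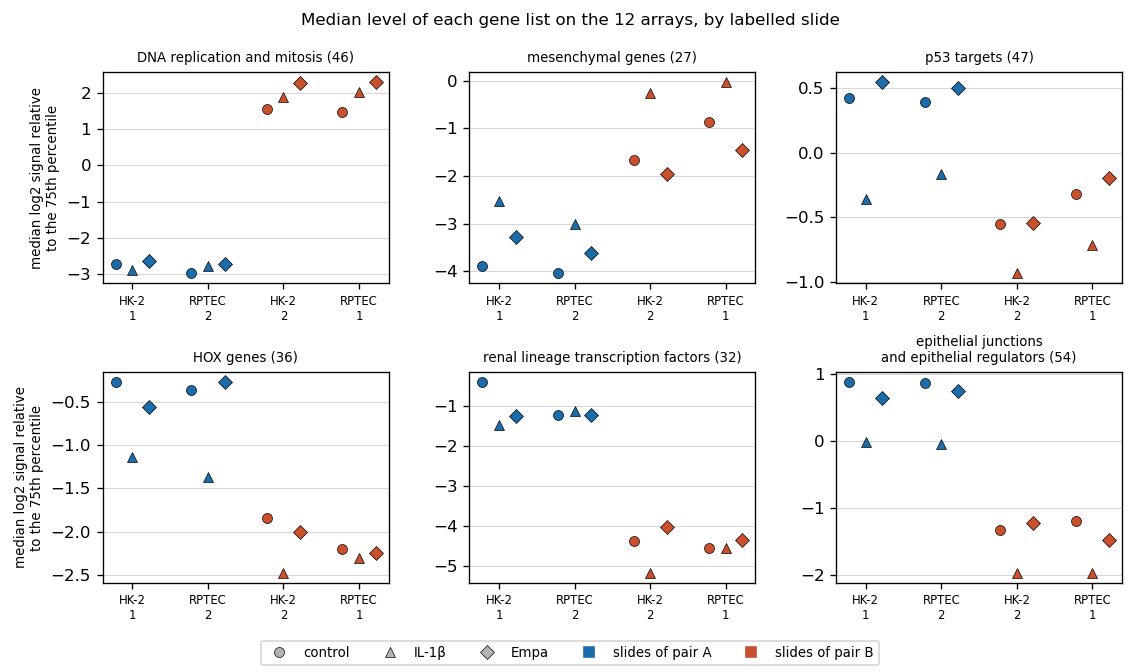
Median log2 signal relative to the array's 75th percentile (y axis) of 6 gene lists on the 12 arrays, by labelled slide (x axis); circles are controls, triangles IL-1β and diamonds Empa, blue the slides of pair A and red those of pair B, and the number of genes measured on all 12 arrays is in brackets. For DNA replication and mitosis the blue points lie from -2.99 to -2.65 and the red points from 1.48 to 2.31.

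The comparison the labels name, HK-2 controls against RPTEC/TERT1 controls, called 0 of 15716 genes (0.0%) by limma at an adjusted p threshold of 0.05, with 153 at an unadjusted p under 0.05. The smallest adjusted p was 1 (limma, 6 residual degrees of freedom). Every labelled group held 1 array from the slides of each pair, so the difference between the pairs entered the residual spread. The test therefore had little means of calling a difference between lines, and its 0 does not show that they were alike. The test asks for a probe well above background on both arrays of a group, and each control group held 1 array of each pair. As a result it covered 131 of the 480 genes on in pair A and off in pair B and 383 of the 865 the other way, and CDH1, PAX2, CCND2 and TOP2A were not tested. Without that filter 5 of 25611 genes were called, EPPIN and 2 unnamed transcripts higher and KRT36 and SCARNA22 lower in the HK-2 label, all 5 well above background on 0 of 12 arrays. In that fit the mean of CDH1 was -0.93 under the HK-2 label and -0.96 under the RPTEC/TERT1 label. None of the 202 genes named here that it tested was called. Most of these genes were named because they separated the pairs, and each label held 1 array of each pair. That outcome was therefore largely fixed by how they were chosen, and no conclusion is drawn from it.

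Of 5 reference genes, GAPDH read 6.51, 6.30, 7.05 and 6.69, ACTB 7.78, 7.72, 7.36 and 7.67, and PPIA 7.53, 7.27, 7.34 and 7.36. TBP read -0.60, -0.81, -0.13 and 0.49, and HPRT1, a purine salvage enzyme, read 1.63, 2.07, 3.33 and 3.29. GAPDH, TBP and HPRT1 lay higher in pair B without overlap, and ACTB lay higher in pair A. At the 4-fold threshold (2 on the log2 scale for the smallest difference between arrays of the pairs), SLC33A2 at 2.0045 was the last gene inside for pair A and PLXNB1 at 1.9986 the first outside, and for pair B these were GARS1 at 2.0008 and FEN1 at 1.9972. Among genes on in 1 pair and off in the other, the smallest bounds were 1.34-fold for ZNF287 in pair A and 1.12-fold for SPATA32 in pair B, whose values overlapped.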

How the data were processed

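Agilent human 4x44K v2 one-colour arrays measured 12 samples. The deposited intensity values (processed signal, mean signal and local background) were made by the authors with Agilent Feature Extraction 9.5.3.1, which subtracted background and removed spatial trends, and the deposited marks of each spot gave detection, saturation and outliers. A deposited table of normalized log2 values, whose scale and centring the sources used here do not give, was used as an alternative; its column medians were 8.31 for the slide of HK-2 control 1, 6.67 to 6.68 for RPTEC/TERT1 control 1, 6.65 for RPTEC/TERT1 control 2 and 7.04 to 7.05 for HK-2 control 2, and its values ranked probes as the scanner signals did (Spearman 0.986 to 0.994 per array).

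Control spots (1377 of 44495) and outliers were dropped, replicate spots were averaged per probe, signals were scaled so that all arrays had the same 75th percentile, scaled signals under 1 unit were set to 1, and log2 values relative to that percentile were taken. Probes were named through RefSeq by accession (26044) or symbol (2217), and 5510 kept the file's name. The number of arrays limits the precision. The pairs were set from the measured values, and the members and the 16 gene lists were chosen with earlier results of these data known. Named genes were the 12 with the largest bound in each direction, list members on in 1 pair and off in the other or at least 4-fold apart, members that define a list, and reference genes. Genes from XIST and the Y chromosome were left out. Labelled groups were compared with limma 3.58.1 in R 4.3.3 on 12 arrays in 6 groups, with Benjamini-Hochberg adjustment, for genes detected well above background in both samples of some group. Scripts were tested on simulated data. For the label comparison these data had independent noise and no crossed pairs, so they do not show what that test can call here. Results for some genes are not reported here.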

Additional observations from a re-analysis of the deposited data

How the results depend on the processing

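Leaving out 1 control array, so that a single array stood for its pair, gave 545 to 906 genes on in pair A and off in pair B (906 without RPTEC/TERT1 control 2) and 907 to 1586 the other way (1586 without HK-2 control 1 and 1462 without HK-2 control 2), because fewer arrays then had to meet the detection rule. Asking also for a 4-fold bound left 495 of the 865 genes. Genes at least 4-fold higher numbered 435 in pair A and 389 in pair B after normexp and quantile normalization, 359 and 140 in the authors' table, and 388 and 367 among genes well above background on all 4 control arrays, so that pair A had the larger count there, as it had with median scaling (904 and 878), while pair B had it in the values as reported (875 and 973). Scaling to the median in place of the 75th percentile moved the median gene on in a pair to 0.11 and the authors' table moved it to 0.23, against -0.03. In the authors' table the difference turned to pair A for CDC6 (0.0348), CYP27B1 (0.23), HOXC13 (0.44), SLC7A7 (0.11) and TWIST1 (0.27). All of these lay below the median of all genes in that table, 0.79. The cause was not tested, and no other named gene of 208 reversed under any scaling tried. Sizes did change: the median absolute log2 difference was 4.83 as reported, 2.94 after normexp and quantile normalization and 2.69 in the authors' table. Some genes given as at least N-fold apart fell short of that bound there. After normexp and quantile normalization the log2 difference was 0.88 for EDA2R and -1.15 for CCL20. The kept states on the treated arrays were 112 and 207 with the weaker detection mark (positive and significant). Leaving out 1 array gave 1008 to 1105 genes at least 4-fold higher in pair A and 1068 to 1276 in pair B. The label comparison called 5 genes without the filter on dim probes and 0 under every other alternative run, including 0 with the replicate number as a block (177 at an unadjusted p under 0.05; nothing in the labels ties a number to a shared culture, and arrays of the same number deviated in opposite directions, r = -0.80 for the controls) and 0 without each control array in turn (80 to 215). With the crossed pairing as a block, chosen after seeing the data, 0 were called and 406 had an unadjusted p under 0.05.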
